A study of Mus musculus with 4 samples.

Results

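The genes described here are the ligands and receptors of axon guidance: semaphorins and plexins, ephrins and Eph receptors, slits and Robo receptors, and netrins and Unc5 receptors. They were measured in mouse embryonic stem cells with and without knockdown of Chd4, the ATPase of the NuRD chromatin remodelling complex. A gene was a member where the platform annotation gave a probe set a single symbol that starts with Sema, Plxn, Epha, Ephb, Efna, Efnb, Slit, Robo, Ntn or Unc5, without the Slitrk genes. This rule found 151 probe sets of 70 genes, among 18193 genes on the array. They comprise 37 ligand genes, 30 receptor genes and 3 genes that share only the start of the name: Unc50, Unc5cl and Plxna4os1.

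The Chd4 knockdown group was 2 arrays from the inducible RNAi line Chd4i-1, a derivative of the J1 embryonic stem cell line, given 5 ng/ml doxycycline for 3 days. The control group was 2 arrays from the same line without doxycycline. Both groups carried the RNAi construct and were cultured on gelatin with serum and LIF, the cytokine that sustains self-renewal. Only 1 RNAi line was used, and doxycycline without an active construct was not analysed here, so effects of the drug, of RNAi and of Chd4 loss cannot be told apart. The design text describes biological duplicates, and every value is only as precise as so few arrays allow.

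Guidance molecules steer growing axons and migrating cells. A ligand that is secreted or held on a neighbouring cell binds a receptor that rearranges the actin cytoskeleton through small GTPases and kinases, and the cell turns towards or away from the source. Netrins bind Dcc and neogenin and the Unc5 receptors, slits bind Robo receptors, ephrins bind Eph receptor tyrosine kinases, and semaphorins bind plexins, often with a neuropilin as co-receptor. Many of these genes are also active outside the nervous system, in epithelia, blood vessels and early embryos.

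Values are signals from the MAS5 algorithm on a linear scale. The median signal per array lay between 73.4 and 79.4. Chd4 itself fell at each of its 3 probe sets, to 48.5% (probe set 1438476_a_at), 56.1% (1436343_at) and 65.0% (1451295_a_at) of control (adjusted p = 0.000244, 0.00232 and 0.00638, limma). Embryonic stem cell markers stayed bright on every array: 8 of 8 were tested, Dppa5a rose (1.14-fold), and Esrrb and Klf4 fell (1.22-fold and 1.19-fold). The sum of all 8 was 112170 to 114734 in knockdown and 112895 to 116105 in control arrays. Without Dppa5a it was 85314 to 86373 in knockdown and 89131 to 91544 in control arrays, which did not overlap. Pou5f1 and Tdgf1 were also lower and did not pass (limma, unadjusted p = 0.0151 and 0.0342). Markers of 6 other cell types were measured too. Of the 8 listed neuron genes 7 were tested, Tubb3 rose (1.23-fold) and Stmn2 fell (1.15-fold). Their summed signal was 12789 to 12957 in knockdown and 13727 to 14008 in control arrays, most of it from Stmn2. Without Stmn2 the direction turned, with a sum of 3061 to 3071 in knockdown and 2487 to 2648 in control arrays. Of the other neuron genes, Map2, Rbfox3, Syp and Gap43 were higher and Elavl3 lower, all without overlap and without a call, and Dcx overlapped. An unadjusted p under 0.05 in limma was found for 5 of the 7 tested neuron genes, against 33.8% of all tested genes. In the neural progenitor list 0 of 2 tested genes passed in limma, also at an unadjusted p under 0.05, at a sum of 249.6 to 271 in knockdown and 427 to 495 in control arrays. Sox1 of that list, below the filter by its mean signal, had 21.3 and 5.40 in knockdown and 129 and 183 in control arrays, which is at least 2.02-fold lower with signals under the array median of 76.0 raised to it. Without Sox1 the sum was 244 to 250.2 in knockdown and 299 to 312 in control arrays. Fibroblast markers summed to 786 to 875 in knockdown and 322 to 480.2 in control arrays. Of 3 tested out of 8, Thy1 was 3.06-fold higher, and without it the sum was 239 to 274 in knockdown and 147 to 281 in control arrays, which overlapped. Among the others Pdgfra was higher and Lum lower, both without overlap and without a call, and Col1a1, Col1a2, Col3a1, Dcn and Twist1 overlapped. Endothelial markers summed to 527 to 589 in knockdown and 326 to 341 in control arrays. Of 2 tested out of 6, Tek was 2.19-fold higher, and without it the sum was 172.4 to 249 in knockdown and 172.6 to 177 in control arrays, which overlapped. Among the others Tie1 and Cldn5 were higher and Emcn lower, all without overlap and without a call, and Cdh5 and Kdr overlapped. In the primitive endoderm and mesoderm lists 0 of 4 tested genes each passed in limma, also at an unadjusted p under 0.05. Primitive endoderm markers summed to 339 to 403 in knockdown and 316 to 353 in control arrays, and mesoderm markers to 376 to 434 in knockdown and 354 to 450 in control arrays. No marker was at 0 on any array. The part of these cells in the results on guidance genes was not tested. In such bulk RNA, fewer cells of a type and less RNA per cell cannot be told apart.

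In knockdown cells 3 guidance genes rose and 3 fell. The netrin gene Ntn1, the ephrin-A receptor gene Epha2 and the semaphorin gene Sema5b were lower, while the Eph receptor gene Epha4, the netrin receptor gene Unc5b and the slit gene Slit3 were higher. Of the 70 members, 44 were tested, because their brightest probe set lay in the top 60% of the array by mean log2 signal (a signal of 42.4 or more). The other 26 were too dim. The 6 genes that passed an adjusted p of 0.05 over all genes tested were 13.6% of the 44 tested members, where 20.5% of all 12615 tested genes passed. Genes higher in knockdown were 3 of 44 members against 11.7% of all tested genes, and genes lower were 3 of 44 against 8.81%. At an unadjusted p under 0.05 there were 7 of 44 members (15.9%), against 33.8% of all tested genes. The median log2 difference was -0.034 for the members and 0.014 for all tested genes, and the median size of the difference regardless of sign was 0.20 and 0.21. Tested members had a median log2 signal of 7.12, against 8.92 for all tested genes. Among the brighter genes of the top 40%, 5 of 23 members passed, beside 26.9% of all genes tested there. The groups of arrays did not overlap for 17 of 44 members (38.6%), against 60.6% of all tested genes.

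**Figure D1:**
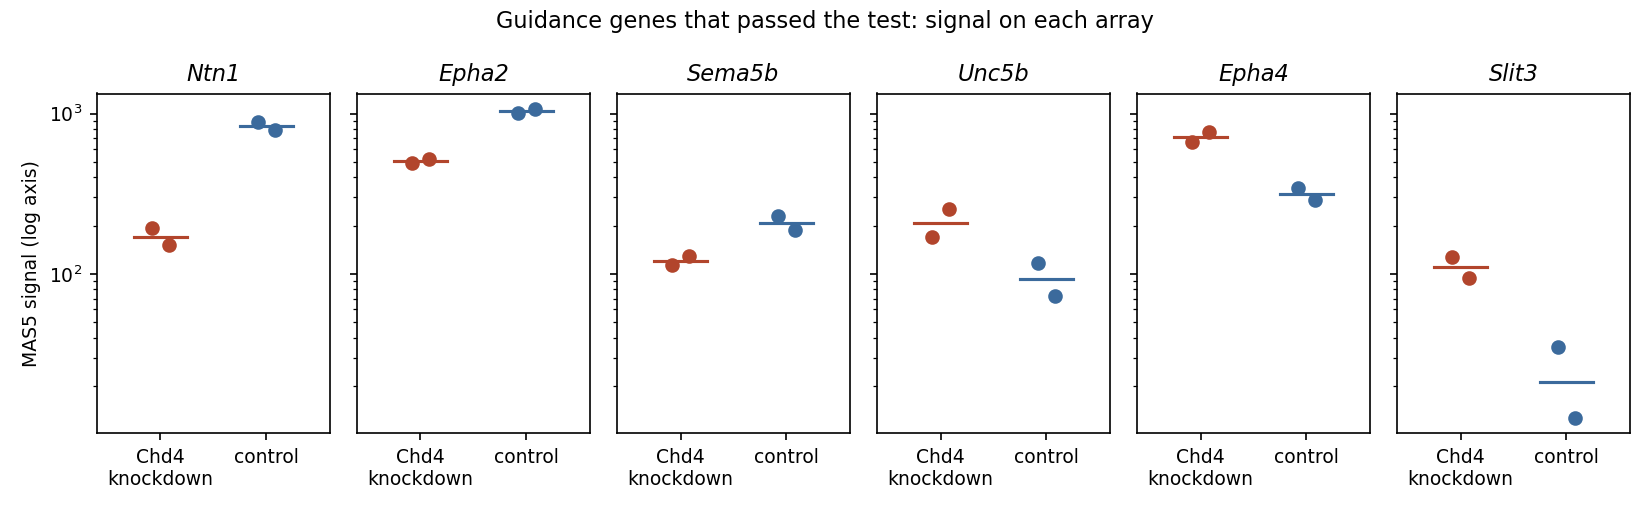
MAS5 signal (log axis) on each array for the 6 guidance genes that passed the test. Points are arrays (2 per group, Chd4 knockdown left and control right) and bars are means of log2 values. No gene has overlapping groups, and the control arrays of Slit3 are the dimmest, at 34.8 and 12.6.

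Netrins are secreted, laminin-related cues. Ntn1, the founding member in mammals, had signals of 193 and 151 on the knockdown arrays and 886 and 788 on the control arrays (probe set 1454974_at). Both knockdown arrays were far under both controls, and the knockdown level was 20.4% of control (log2 difference -2.29 ± 0.16 SE, adjusted p = 4.13e-06, limma). A second, dim Ntn1 probe set, 1422987_at, lay below the filter and also did not overlap, with 22.7 and 4.76 in knockdown and 80.8 and 59.1 in control arrays. The other secreted netrin genes, Ntn3, Ntn4 and Ntn5, and the membrane-anchored netrin-G genes, Ntng1 and Ntng2, were too dim to be tested. Their signals ran from 0.856 to 61.8 over all arrays. Ntng2 was at 28.1 and 43.1 in knockdown and at 2.59 and 0.856 in control arrays, all under the array median of 76.0, so that no fold is given. It is named because it passed when no filter was applied (adjusted p = 0.0377, limma, where 11.7% of 18193 genes passed), and this choice was made after its values were seen.

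Unc5 receptors bind netrins through immunoglobulin domains and carry a cytoplasmic death domain. Unc5b had signals of 171 and 253 in knockdown and 117 and 72.5 in control arrays at probe set 1435110_at. The groups did not overlap, although the arrays of each group lay far apart, and Unc5b was 2.25-fold higher (log2 difference 1.17 ± 0.30 SE, adjusted p = 0.0176, limma). At its other probe set, 1453269_at, the signals were 133 and 129 in knockdown and 107 and 110 in control arrays, a log2 difference of 0.27 ± 0.25 (adjusted p = 0.538 over all probe sets). Leaving out knockdown replicate 2 ended the call at the brighter probe set (log2 0.89, adjusted p = 0.122), as did leaving out control replicate 2 (log2 0.83, adjusted p = 0.0828) and averaging both probe sets (log2 0.72, adjusted p = 0.105). Unc5c had 66.9 and 46.4 in knockdown and 63.5 and 80.3 in control arrays, and overlapped. Unc5a and Unc5d were too dim to be tested. Among the other netrin receptors, Dcc, which mediates attraction, had 107 and 84.8 in knockdown and 91.7 and 85.6 in control arrays (log2 difference 0.11 ± 0.31, adjusted p = 0.849). Its paralogue Neo1 had 763 and 743 in knockdown and 689 and 698 in control arrays (0.12 ± 0.099, adjusted p = 0.442). Both were chosen after their values were seen.

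Slits are large secreted ligands, and Robo receptors turn their signal mainly into repulsion. Slit3 had signals of 127 and 94.6 in knockdown and 34.8 and 12.6 in control arrays at its single probe set. The control signals were under the filter signal of 42.4. Slit3 was therefore tested only through its bright knockdown arrays, and its p is to be read with that limit. Both control arrays were below the array median, so the fold is given as a bound: with signals under the median raised to it, Slit3 was at least 1.44-fold higher, and without that floor the log2 difference was 2.38 ± 0.56 SE (adjusted p = 0.0114, limma). The call was lost without knockdown replicate 1 (log2 2.17, adjusted p = 0.0785) and with the floor in the fit (0.53, adjusted p = 0.0864). With a single array left out the log2 difference ran from 1.65, without control replicate 2, to 3.12, without control replicate 1, and both of these passed (adjusted p = 0.0268 and 0.00182). Slit2, the best studied Robo ligand, had 150.1 and 148 in knockdown and 183 and 207 in control arrays (log2 difference -0.39 ± 0.21, adjusted p = 0.215). Its other 2 probe sets had the opposite sign. Robo1 had 789.6 and 721 in knockdown and 841 and 901 in control arrays, groups that did not overlap, with a log2 difference of -0.21 ± 0.10 (adjusted p = 0.176). Robo4, a Robo of blood vessels, had a log2 difference of 0.20 ± 0.29 (adjusted p = 0.682). Slit1, Robo2 and Robo3 were too dim to be tested.

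Eph receptors are the largest family of receptor tyrosine kinases, and their signalling depends on contact between cells. The A class binds mainly ephrin-A ligands, which sit on the membrane through a lipid anchor, and the B class mainly ephrin-B ligands, which span it. Of 6 tested Eph receptor genes Epha4 rose, Epha2 fell and 4 did not pass, where 20.5% of all tested genes passed. Epha2 had signals of 495 and 521 in knockdown and 1005 and 1069 in control arrays, and the duplicates lay close together in both groups. The level in knockdown was 49.0% of control (log2 difference -1.03 ± 0.10 SE, adjusted p = 5.66e-05, limma). Epha4, a receptor that binds ephrins of both classes, had 662 and 763 in knockdown and 342 and 289 in control arrays, with every knockdown value above every control value. It was 2.26-fold higher (log2 difference 1.18 ± 0.14, adjusted p = 0.000166). All 4 other Epha4 probe sets had the same sign, and the 3 of them that were tested passed, at log2 differences of 0.89, 1.17 and 1.30 (adjusted p = 0.00461, 0.000303 and 0.00139 over all probe sets, of which 14.2% passed).

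To show the promoters of the 2 Eph receptors that moved in opposite directions, and of the slit gene that rose, windows of 300 bases are printed from RefSeq (GRCm38.p6), 250 before to 50 after the annotated start, with each CG dinucleotide in capitals. Epha2 lies at chr4:141300971-141301270 on the plus strand, Epha4 at chr1:77515039-77515338 on the minus strand and Slit3 at chr11:35121206-35121505 on the plus strand.
Epha2: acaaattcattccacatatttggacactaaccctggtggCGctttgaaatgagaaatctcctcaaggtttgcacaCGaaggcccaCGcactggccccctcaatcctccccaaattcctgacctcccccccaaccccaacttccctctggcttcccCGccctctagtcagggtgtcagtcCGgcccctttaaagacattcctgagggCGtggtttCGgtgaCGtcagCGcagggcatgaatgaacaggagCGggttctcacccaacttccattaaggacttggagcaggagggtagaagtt
Epha4: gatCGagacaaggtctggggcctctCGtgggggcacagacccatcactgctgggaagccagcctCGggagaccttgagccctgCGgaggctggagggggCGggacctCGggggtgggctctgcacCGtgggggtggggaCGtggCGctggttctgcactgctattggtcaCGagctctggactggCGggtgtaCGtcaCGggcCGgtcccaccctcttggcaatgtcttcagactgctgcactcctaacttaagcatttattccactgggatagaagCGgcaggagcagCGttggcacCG
Slit3: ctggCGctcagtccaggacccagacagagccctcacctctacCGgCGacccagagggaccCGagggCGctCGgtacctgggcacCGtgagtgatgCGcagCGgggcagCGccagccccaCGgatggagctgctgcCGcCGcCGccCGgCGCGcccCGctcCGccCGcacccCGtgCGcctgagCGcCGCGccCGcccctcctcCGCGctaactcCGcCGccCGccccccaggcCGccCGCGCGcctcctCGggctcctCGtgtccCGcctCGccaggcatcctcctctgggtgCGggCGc
The window of Epha2 holds 10 CG, that of Epha4 17 and that of Slit3 41. At least as many were found in 43.5%, 31.4% and 3.46% of all 32851 windows, whose median is 7. Unc5b had 36 and Sema5b 27, and no window was available for Ntn1. Over the 76 windows of the 60 members with an entry, the median was 18.5 CG per window. These counts describe the letters of the windows, and no binding or methylation was measured.

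Ephb3 had 456 and 440 in knockdown and 392 and 361 in control arrays, so the groups did not overlap, but the log2 difference of 0.25 ± 0.13 did not pass (adjusted p = 0.2001). Epha1, Epha7 and Ephb4 had log2 differences of 0.25, 0.13 and -0.16 and did not pass. Epha3, Epha5, Epha6, Epha8, Epha10, Ephb1 and Ephb6 were too dim to be tested. None of the 7 tested ephrin genes passed in limma, against 20.5% of all tested genes. An unadjusted p under 0.05 was found for 1 ephrin gene, against 33.8% of all tested genes. That gene was Efna3, named after its values were seen, with signals of 191 and 203 in knockdown and 281 and 245 in control arrays (log2 difference -0.41 ± 0.18, unadjusted p = 0.0402, adjusted p = 0.127). At the other Efna3 probe set, 1455344_at, the groups overlapped, with 139.9 and 104 in knockdown and 120 and 131 in control arrays. The log2 difference there was -0.058 ± 0.26 (limma, adjusted p = 0.915 over all probe sets). Efna4 had 358 and 384 in knockdown and 380.4 and 373 in control arrays, which overlapped, and the 95% interval of its log2 difference ran from -0.32 to 0.27. The transmembrane ligand genes Efnb1, Efnb2 and Efnb3 had log2 differences of -0.31, 0.010 and -0.12. Efna5 was too dim to be tested.

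**Figure D2:**
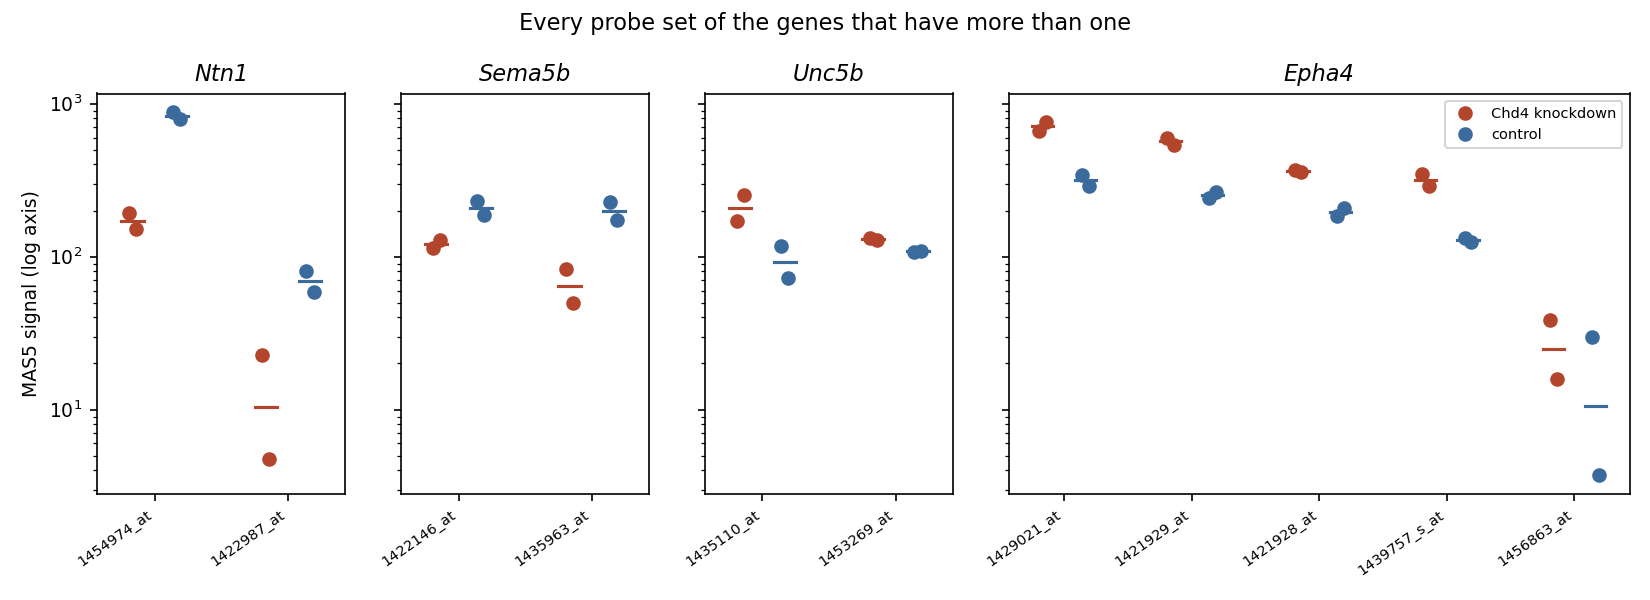
MAS5 signal (log axis) on each array for every probe set of the called genes with more than 1 probe set, with Chd4 knockdown left of control at each. Bars are means of log2 values. The 4 brighter Epha4 probe sets and both Sema5b probe sets separate the groups, while the dim Epha4 probe set 1456863_at overlaps.

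Semaphorins share an extracellular sema domain and are grouped in classes: class 3 is secreted, classes 4 to 6 span the membrane and class 7 is lipid-anchored. Of 20 semaphorin genes 14 were tested, 1 fell, and 0 rose in limma, also at an unadjusted p under 0.05. Over all tested genes 20.5% passed and 33.8% had an unadjusted p under 0.05. Sema5b, a transmembrane member with thrombospondin repeats, had signals of 113 and 129 in knockdown and 231 and 187 in control arrays at probe set 1422146_at. Its groups did not overlap, and the knockdown level was 58.2% of control (log2 difference -0.78 ± 0.22 SE, adjusted p = 0.0309, limma). At its other probe set, 1435963_at, the signals were 83.1 and 49.8 in knockdown and 226 and 172 in control arrays. With the floor at the median that is at least 2.48-fold lower, and without it a log2 difference of -1.61 ± 0.31 (adjusted p = 0.00599 over all probe sets). Leaving out knockdown replicate 1 ended the call at the brighter probe set (log2 -0.69, adjusted p = 0.0963), as did leaving out control replicate 1 (log2 -0.63, adjusted p = 0.201) and fitting without the filter on dim genes (-0.78, adjusted p = 0.0653).

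The other 13 tested semaphorin genes had log2 differences between -0.79 and 0.15. Sema4b had 724 and 568 in knockdown and 603 and 552 in control arrays, and Sema4d, a ligand of plexin B1, had 485 and 414 in knockdown and 452 and 415 in control arrays. Both overlapped, and the sign of their differences turned when a single array was left out. Sema6c had 117 and 37.0 in knockdown and 120.2 and 109 in control arrays, with a log2 difference of -0.79 ± 0.47 (adjusted p = 0.268) at its brightest probe set. Without knockdown replicate 1 it passed (-1.63, adjusted p = 0.0173), and without knockdown replicate 2 its log2 difference was 0.038 (adjusted p = 0.954). Its other tested probe set, 1423454_a_at, passed as lower, with 23.9 and 21.1 in knockdown and 108 and 109 in control arrays. With the floor that is at least 1.43-fold lower, and without it a log2 difference of -2.27 ± 0.43 (adjusted p = 0.00545 over all probe sets). Sema3e, a secreted class 3 member that binds plexin D1 directly, had 212 and 158 in knockdown and 255 and 220.5 in control arrays (log2 difference -0.37 ± 0.21, adjusted p = 0.234) at its brightest probe set. At 1427673_a_at it passed as lower, with 31.5 and 18.4 in knockdown and 65.2 and 94.1 in control arrays (at least 1.11-fold lower with the floor, log2 difference -1.70 ± 0.51 without it, adjusted p = 0.0456 over all probe sets). Its other 2 probe sets had log2 differences of -0.027 and 0.51 and did not pass. Sema6c and Sema3e were the 2 members without a call at the brightest probe set that had one at another. At both of these other probe sets the knockdown signals were under the filter signal of 42.4. They were therefore tested only through their brighter control arrays, and their p values are to be read with that limit. Sema3a, Sema3b, Sema3d and Sema3g were too dim to be tested, as were Sema5a and Sema6d.

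Plexins are semaphorin receptors that act as GTPase-activating proteins on Ras-like GTPases. None of the 8 tested plexin genes passed in limma at its brightest probe set, also at an unadjusted p under 0.05. Over all tested genes these shares were 20.5% and 33.8%. Plxnc1 had a log2 difference of 0.57 ± 0.49 there. Its probe set 1450905_at had 56.3 and 79.3 in knockdown and 24.5 and 37.3 in control arrays, without overlap. With its control signals under the filter signal of 42.4, it was tested only through its knockdown arrays. The log2 difference at 1450905_at was 1.14 ± 0.49 (limma, unadjusted p = 0.0378, adjusted p = 0.148 over all probe sets). At their brightest probe sets the 3 tested A-class genes had log2 differences of 0.16 to 0.31, and the 3 B-class genes of -0.33 to -0.039. Signs were mixed at other probe sets. The 1 other probe set of Plxnb1 was at 0.29 ± 0.20, and that of Plxnb3, too dim to be tested, was higher in knockdown without overlap. Of 3 others of Plxna2 2 kept the sign, as did the 1 other of Plxna1 and of Plxna3. Plxna3 had 272 and 315 in knockdown and 232 and 241 in control arrays, without overlap (log2 difference 0.31 ± 0.17, adjusted p = 0.220). Plxna1 had 322 and 314 in knockdown and 260.1 and 312 in control arrays (0.16 ± 0.16, adjusted p = 0.534). Plxnb2 had 324 and 447 in knockdown and 437 and 525 in control arrays, and overlapped. Its log2 difference was -0.33 ± 0.17 (adjusted p = 0.194), and it passed as lower without knockdown replicate 2 (-0.56, adjusted p = 0.0392). Plxna4 was too dim to be tested. Of the genes that share only the start of the name, Unc50 had 4119 and 3638 in knockdown and 3873 and 4251 in control arrays (log2 difference -0.068 ± 0.074, adjusted p = 0.572). Unc5cl did not pass (log2 difference -0.16 ± 0.41), and Plxna4os1 was too dim to be tested.

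**Figure D3:**
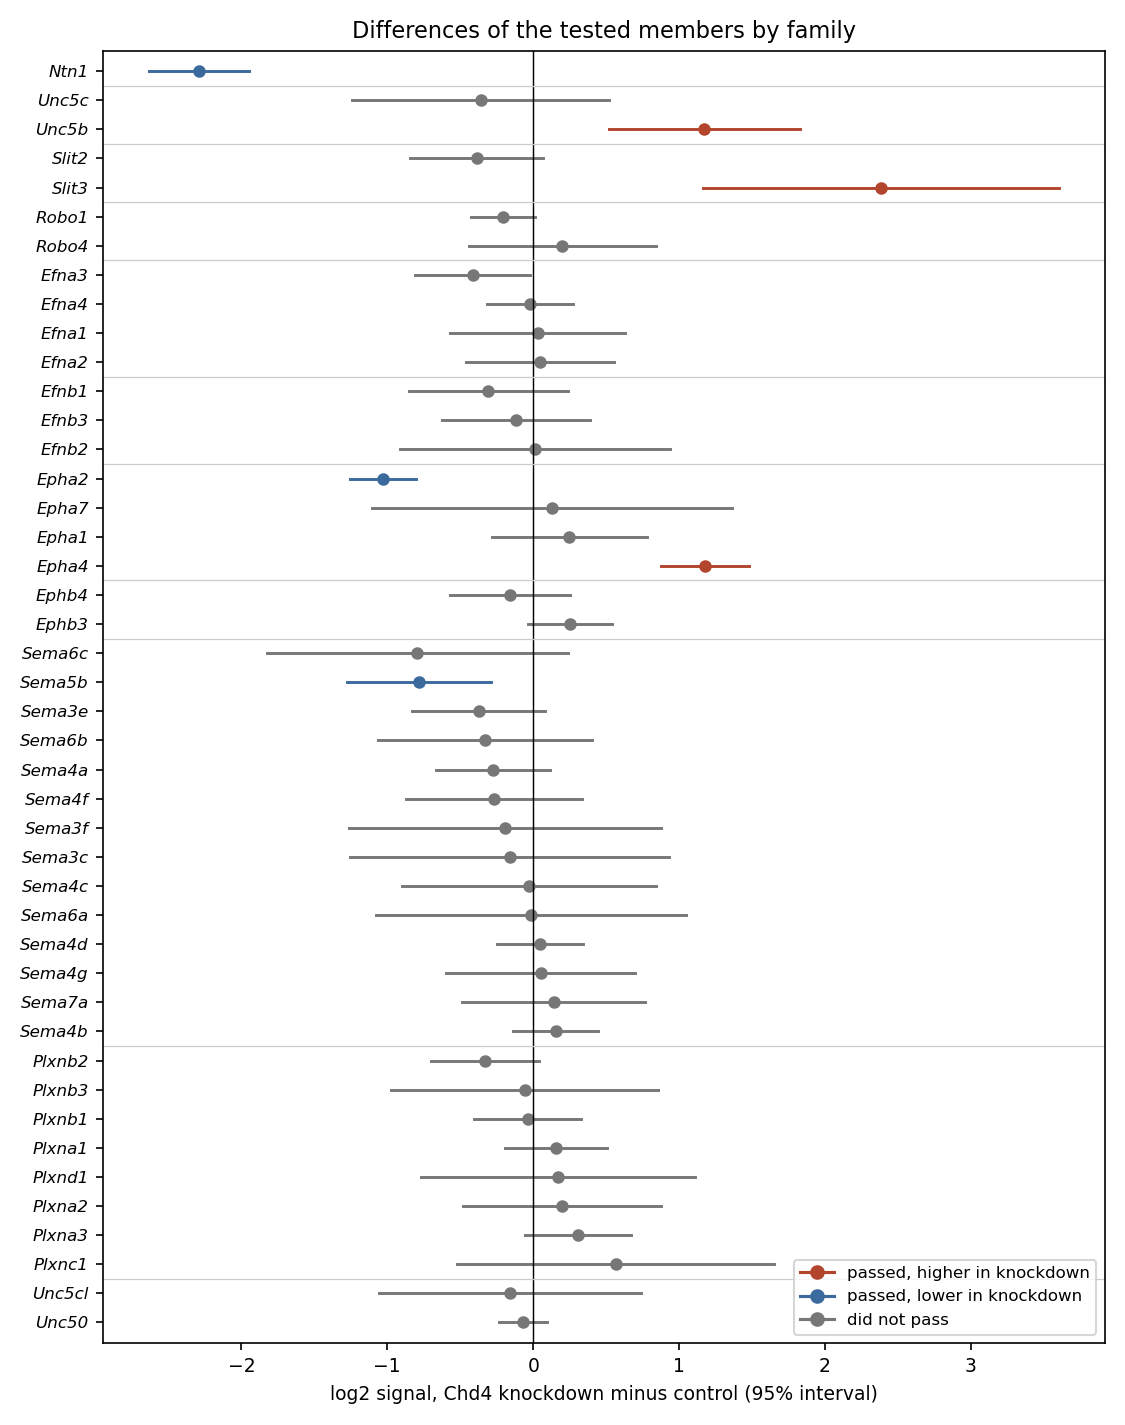
Log2 signal in Chd4 knockdown minus control for the 44 tested members, grouped by family, with the 95% interval from the fit (n = 2 arrays per group). The 38 members in grey did not pass, and the interval of Epha7, with an SE of 0.56, is the widest of the 44.

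Across the 38 tested members that did not pass, the log2 difference lay between -0.79 and 0.57 and its SE between 0.074 and 0.56. The 95% interval stayed within a 2-fold change in either direction for 28 of them and reached beyond it for 10, so that a 2-fold change of those 10 lay within the error of these arrays. Groups did not overlap for 11 of the 38, against 50.4% of the 10023 tested genes that did not pass. The 26 members below the filter had signals from 0.856 to 81.8 on single arrays, and their groups did not overlap for 9, of which 7 were higher and 2 lower in knockdown. Of all 5578 genes below the filter, 36.8% did not overlap. The members nearest the filter were Epha7 and Sema3f just inside, at mean signals of 45.03 and 45.97, and Robo3 and Plxna4 just outside, at 40.2 and 40.1.

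**Figure D4:**
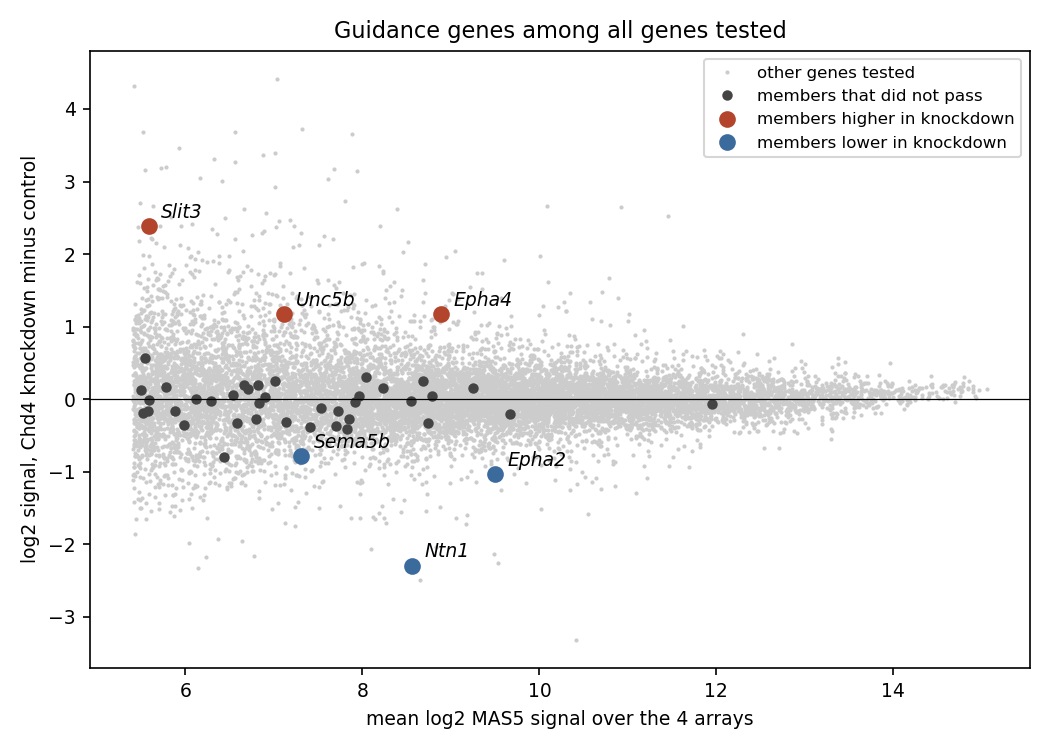
Log2 signal in Chd4 knockdown minus control (vertical) against mean log2 signal over the 4 arrays (horizontal) for all 12615 genes tested, with the guidance genes marked. The members that did not pass lie within the grey cloud of other genes, which widens towards dim signals, and Ntn1, at -2.29, lies near its lower edge.

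Other genes of the pathway changed in both directions. The list of co-receptors and further guidance ligands and receptors had 18 tested genes, of which 1 rose and 1 fell (11.1%, beside the 20.5% of all tested genes), with a median log2 difference of 0.069. Nrp2, a co-receptor for class 3 semaphorins, had signals of 736 and 689 in knockdown and 301.4 and 301.2 in control arrays, without overlap. It was 2.36-fold higher (log2 difference 1.24 ± 0.12 SE, adjusted p = 5.53e-05, limma), while the related Nrp1, named after its values were seen, was too dim to be tested. Sdc1, a heparan sulphate proteoglycan of the cell surface, fell to 537 and 649 in knockdown arrays, against 1090 and 896 in control arrays (-0.74 ± 0.13, adjusted p = 0.00216). Averaging over its probe sets ended the call of Sdc1 (-0.44, adjusted p = 0.0615). The cell adhesion gene Cntn2 and the fibronectin leucine-rich protein gene Flrt3 had log2 differences of -1.01 ± 0.33 and -0.64 ± 0.28 and did not pass (adjusted p = 0.0522 and 0.133).

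Among 47 tested cytoplasmic effectors 9 rose and 3 fell (25.5%, beside the 20.5% of all tested genes), with a median log2 difference of 0.11. Farp1, a guanine nucleotide exchange factor that acts with plexins, had 380.1 and 413 in knockdown and 143 and 147 in control arrays, and was 2.74-fold higher (log2 difference 1.45 ± 0.17, adjusted p = 0.000173, limma). Members of the collapsin response mediator family link semaphorin receptors to microtubules. Crmp1 rose, Dpysl2 fell, and Dpysl3, Dpysl4 and Dpysl5 did not pass (adjusted p = 0.746, 0.285 and 0.735, limma). Crmp1 was 2.09-fold higher, at 440.4 and 387 in knockdown and 233 and 168 in control arrays (adjusted p = 0.00246). Dpysl2 was 1.44-fold lower, at 1571 and 1517 in knockdown and 2212 and 2236 in control arrays (adjusted p = 0.000488). Chn1, a Rac-inactivating protein gene that acts below Epha4, was 1.47-fold higher, at 925 and 894 in knockdown and 599.5 and 639 in control arrays (adjusted p = 0.00281). When probe sets were averaged, Farp1, Dpysl2 and Chn1 no longer passed (log2 0.99, -1.28 and 0.34, adjusted p = 0.0695, 0.0545 and 0.341). In that fit 5 effectors rose and 0 fell, where 10.5% of all tested genes passed.

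Of 16 tested proteases and heparan sulphate enzymes that shed or present guidance cues, 3 rose and 3 fell (37.5%, beside the 20.5% of all tested genes). The median log2 difference of this small list was -0.025. Ext1, which polymerises heparan sulphate chains, fell to 550.1 and 639 in knockdown arrays, against 1027 and 963 in control arrays (log2 difference -0.75 ± 0.11, adjusted p = 0.000795, limma). The membrane metalloprotease gene Mmp14 fell to 196 and 161, against 308 and 345 in control arrays (-0.87 ± 0.18, adjusted p = 0.00617). Mmp2, a secreted gelatinase gene, was 1.48-fold higher, at 622 and 594 in knockdown and 402 and 423 in control arrays (adjusted p = 0.00647). Adam9, a membrane sheddase gene, was 1.25-fold higher, at 1671 and 1665 in knockdown and 1304 and 1357 in control arrays (adjusted p = 0.0116). Averaged over probe sets, Ext1 and Mmp2 did not pass (log2 -0.38 and 0.40, adjusted p = 0.529 and 0.053). The call of Adam9 was lost without control replicate 1 (0.30, adjusted p = 0.0643).

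Myelin inhibitors and Rgs-type signalling partners, a list that also holds adaptor proteins, gave 2 rises and 0 falls among 12 tested genes (16.7%) in limma, and 3 genes at an unadjusted p under 0.05, with a median log2 difference of 0.13. The polarity protein gene Pard3 had 1006 and 1002 in knockdown and 807 and 747 in control arrays (log2 difference 0.37 ± 0.094, adjusted p = 0.0172). Leaving out knockdown replicate 1 ended its call (log2 0.37, adjusted p = 0.0533), as did leaving out control replicate 2 (log2 0.32, adjusted p = 0.102) and averaging its probe sets (log2 0.61, adjusted p = 0.110). The adaptor gene Grip2, which binds ephrin-B tails, had 104 and 199.98 in knockdown and 71.7 and 43.3 in control arrays. With the floor at the median it was at least 1.89-fold higher (adjusted p = 0.0309 without the floor). Leaving out knockdown replicate 2 ended the call (log2 0.90, adjusted p = 0.240), as did leaving out control replicate 2 (log2 1.01, adjusted p = 0.117) and raising dim signals to the floor before the fit (log2 0.92, adjusted p = 0.0848). The myelin inhibitor gene Rtn4 and the regulator gene Rgs3 had log2 differences of 0.14 and 0.43 and did not pass (adjusted p = 0.0515 and 0.152).

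**Figure D5:**
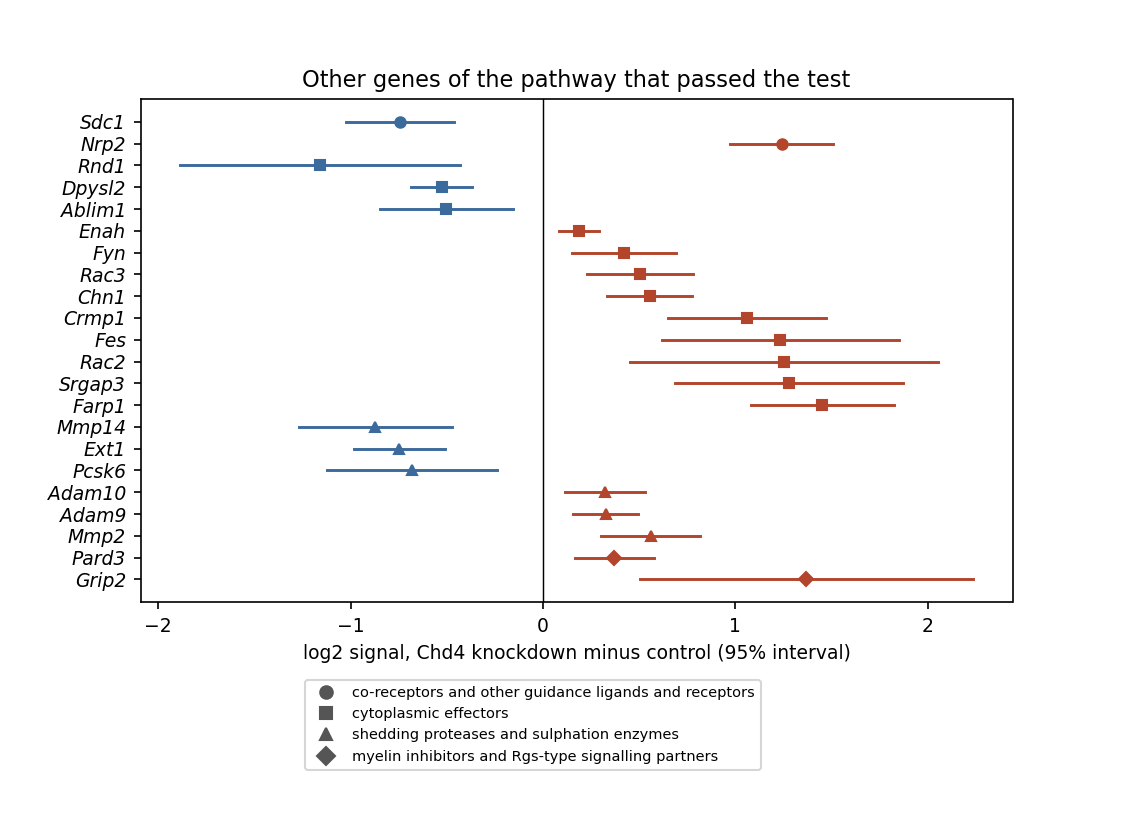
Log2 signal in Chd4 knockdown minus control, with 95% intervals from the fit (n = 2 arrays per group), for the genes of the 4 pathway lists that passed. Marker shapes give the list, red genes are higher and blue genes lower in knockdown. Farp1, at 1.45, lies farthest to the right.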

How the data were processed

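RNA from 2 Chd4 knockdown and 2 control samples, grouped by their labels, was measured on Affymetrix mouse arrays. The authors deposited each probe set's intensity as a linear signal. The submitters' processing notes name MAS5. Its version and scaling target are not given in the sources used here. Of 45101 probe sets 64 were controls, and 34945 had a single symbol. RefSeq matched all 70 members by Entrez ID.

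The brightest probe set (mean log2 signal) stood for its gene. Genes whose probe set reached the top 60% entered a two-sided limma test (version 3.58.1, R 4.3.3) of log2 signal with an intensity trend, with no pseudocount. Residual degrees of freedom were 2, those from the prior 9.12. The Benjamini-Hochberg adjustment ran over 12615 genes, with a threshold of 0.05. Low MAS5 signals vary strongly between arrays. Where the dimmer group lay under the median signal (76.0), values were raised to it and the fold is a bound, not a confidence limit. The method was tested on simulated data. Members, lists and tests were chosen with earlier results of these data known. Full values were given for members that passed, the 12 brightest members and up to 4 genes per pathway list with the smallest p. Values of other members account for their families and were chosen after they were seen.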

Additional observations from a re-analysis of the deposited data

How the results depend on the processing

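Ntn1, Epha2 and Epha4 passed under all 13 alternatives, with adjusted p values up to 0.0294, 0.0339 and 0.047. Slit3 passed in 9 of the 12 that could test it (not among the top 40%), Unc5b in 8 of 13 and Sema5b in 8 of 13, and no member that passed changed sign. Members higher numbered 2 to 3 and members lower 2 to 4 with a single array left out, and 1 member rose and 2 fell without the intensity trend, where Slit3, Unc5b and Sema5b had adjusted p values of 0.109, 0.141 and 0.0842. Against a 1.2-fold change Unc5b and Sema5b did not pass (adjusted p = 0.0898 and 0.221).

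Over all genes 1480 were higher and 1112 lower as reported, 293 and 128 without the trend, 703 and 623 with probe sets averaged, and 430 and 214 against a 1.2-fold change. With an array left out 1086 to 1140 were higher and 686 to 1005 lower, the lowest without control replicate 2. The Chd4 probe sets kept their log2 differences of -0.83, -1.05 and -0.62 without the trend but did not pass (adjusted p = 0.132, 0.0835 and 0.197), and probe set 1451295_a_at, at -0.62, did not pass with the floor (0.0552) or against a 1.2-fold change (0.132). With an array left out they ranged from -1.03 to -0.64 (1436343_at), -1.13 to -0.96 (1438476_a_at) and -0.80 to -0.44 (1451295_a_at).

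Of the co-receptor list, 2 rose without the filter, and 2, 3 and 0 fell with log2(signal + 16), with the floor and with probe sets averaged, and 1 to 2 with an array left out. Effectors higher were 2 without the trend, 5 averaged and 3 against a 1.2-fold change. Effectors lower were 1 without the filter, 0 without the trend, 0 averaged, 1 against a 1.2-fold change and 1 to 3 with an array left out. Proteases and sulphate enzymes higher and lower were 0 and 0 without the trend, 1 and 1 averaged, and 0 and 1 against a 1.2-fold change. Adaptor genes higher were 1 without the filter, 1 with the floor, 0 without the trend, 0 averaged, 0 against a 1.2-fold change and 0 to 2 with an array left out, and 1 fell when averaged.

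Signs turned for genes without a call. With an array left out, the log2 difference ranged from -0.072 to 0.029 for Efna4, -0.021 to 0.33 for Sema4b, -0.066 to 0.16 for Sema4d, -1.63 to 0.038 for Sema6c and -0.16 to 0.022 for Unc50. Sema4d stood at -0.015 without control replicate 2 and at -0.020 with probe sets averaged. The cause was not tested. With the replicate number as a replicate block all 6 member calls held and 2260 genes passed. Of the adaptor genes 1 then rose, and Grip2 did not pass (adjusted p = 0.0577). Same-numbered arrays deviated together at a correlation of 0.018, and nothing in the labels pairs them. With 2 arrays per group, small changes of dim genes could not be detected.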
